A study of Arundo donax with 9 samples.

Results

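The transcription factors of the APETALA2/ethylene-responsive factor (AP2/ERF) superfamily, including the dehydration-responsive element-binding (DREB) proteins, were followed in leaves of giant reed (Arundo donax) under prolonged salt. Members were the assembled transcripts, called unigenes, whose best Swiss-Prot match is described as an ethylene-responsive transcription factor, a dehydration-responsive element-binding protein or an AP2-like ethylene-responsive factor. The rule found 256 unigenes among 255855 in the series, under 60 protein names. Of these, 205 unigenes (80.1%) carried a Pfam AP2 domain, the DNA-binding domain that defines the superfamily, and 51 did not. A further 116 unigenes with an AP2 domain lay outside the rule, among them 49 with no Swiss-Prot match, 33 described as APETALA 2 and 11 described with an additional B3 domain. Most best matches were to Arabidopsis (201) or rice (49) proteins, so the names below are those of the closest described protein and not of a proven giant reed ortholog. Names of the form Ethylene-responsive transcription factor 7 are shortened to ERF7, and Dehydration-responsive element-binding protein 1A to DREB1A.

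AP2/ERF factors bind short DNA elements through the AP2 domain. The ERF branch is best known for binding the GCC box downstream of ethylene and jasmonate, the DREB branch for binding the dehydration-responsive element in genes induced by cold, drought and salt, and the AP2-like branch, with a repeated AP2 domain, for growth and organ development. In Arabidopsis, group VII ERFs are degraded through an N-terminal cysteine when oxygen is present and activate fermentation genes when it is scarce, group VIII ERFs carry a repression motif, and group IX ERFs activate defence genes.

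All plants were the single giant reed clone G2, a clonally propagated polyploid, grown from rhizomes in pots and irrigated weekly. By the labels, the control group G2-CK received water with no NaCl (0 mM), the group under severe salt, G2-S3, received 250 mM NaCl, and the group under extreme salt, G2-S4, received 420 mM NaCl. Each group had 3 leaf libraries, labelled as replicates and taken from fully expanded, non-senescing leaves, and no other genotype or agent entered these groups. A single clone limits the results to that genotype. Both salt comparisons share the 3 control libraries.

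The deposited lists give expected read counts and FPKM (fragments scaled to transcript length and to the library total) for each unigene above 0.3 FPKM in that library, and a unigene absent from a list is described as below the list minimum. Totals fitted from these values ran from 23 to 25.7 M reads per library. The distance between libraries, as the root mean square difference in log2 CPM (reads scaled to the library total in M), was 0.55 to 0.59 within G2-CK and 0.56 to 0.61 within G2-S4, but G2-S3 replicate 3 lay 0.66 to 0.71 from the other G2-S3 libraries and 0.69 to 0.70 from the controls. Leaf mesophyll markers (chlorophyll a-b binding proteins and Rubisco small subunits) summed to 5724 to 6603 CPM in G2-CK, 4635 to 5064 CPM in G2-S3 and 1871 to 2272 CPM in G2-S4, and 11 of the 16 tested fell in G2-S4 while 1 rose. Senescence markers summed to 2909 to 3644 CPM in G2-CK, 1531 to 1880 CPM in G2-S3 and 1300 to 1790 CPM in G2-S4, but this sum followed the protease SAG39, the 1 of the 5 that fell, while the other 4 rose in G2-S4. Secondary wall cellulose synthases of the xylem stood at 107 and 161 CPM in G2-S3 replicates 1 and 2 and at 4.87 CPM in replicate 3, against 3.74 to 8.08 CPM in the controls. Meristem homeobox markers summed to 352 to 361, 381 to 410 and 331 to 343 CPM in G2-CK, G2-S3 and G2-S4. Of 7 tested, 2 rose in G2-S3 and 1 in G2-S4, and none fell against the control. Root Casparian strip markers were scarce, at 5.08 to 5.50, 3.03 to 4.41 and 2.27 to 2.99 CPM in the same order. The 1 tested was called lower in G2-S4 (log2 fold change -0.95). The part of these markers in the results below was not tested, and in whole leaves fewer cells of a type and less RNA per cell cannot be told apart.

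Of the 256 members, 177 had enough reads to test, 124 were listed in all 9 libraries and 23 in 1. Against the controls, 25 of the 177 tested members (14.1%) changed in G2-S3 at an adjusted p under 0.05 in the edgeR quasi-likelihood test, 17 of them higher and 8 lower, beside 5.73% of all 127554 unigenes tested. In G2-S4, 70 members (39.5%) changed, 45 higher and 25 lower, beside 28% of all unigenes. Between the salt doses, 34 members (19.2%) differed, 24 higher and 10 lower in G2-S4, beside 14.1% of all unigenes, 7.24% higher and 6.88% lower. The median log2 fold change over the tested members was 0.04, 0.13 and 0.13 in these comparisons, near the medians of -0.00, -0.03 and -0.02 over all unigenes tested. By direction in G2-S4, 25.4% of tested members rose beside 14.2% of all unigenes, and 14.1% fell beside 13.8%. Omitting replicate 1, 2 or 3 of G2-CK gave a G2-S3 count of 17, 6 or 8, beside 2.91%, 1.66% or 2.24% of all unigenes. Omitting replicate 1, 2 or 3 of G2-S3 gave 7, 9 or 35, beside 2.03%, 1.97% or 8.32%. The share over all unigenes moved in the same direction as the count. Of the single calls, 4 of 25 in G2-S3 (copies of ERF7 and RAP2-4), 47 of 70 in G2-S4 and 13 of 34 between the doses were kept in each of the 9 fits that left out 1 library. Fold changes below are on the log2 scale, against the control unless stated, with ± their standard error from the fit to 3 libraries a group.

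Counts were also summed over all unigenes of a protein name, since the assembly split most names over several unigenes. Of the 50 names tested, 8 changed in G2-S3 (16%, beside 16% of all 12242 names tested), 22 in G2-S4 (44%, beside 51.6%) and 11 between the doses (22%, beside 34.6%). At this level the family was therefore called no more often than the transcriptome as a whole. Of the 8 names called in G2-S3, 6 were higher and 2 lower, and of the 22 in G2-S4, 15 were higher and 7 lower. The 8 became 5 when replicate 2 of G2-CK or replicate 1 of G2-S3 was omitted, beside 5.05% and 6.92% of all names. The 11 between doses became 6 when replicate 1 of G2-S3 was omitted and 7 when replicate 3 of G2-S4 was, beside 25.4% and 30.9%.

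Expression of the family as a whole was 1284, 1063 and 1112 CPM in the G2-CK libraries, 1078, 1267 and 1221 CPM in G2-S3 and 1437, 1414 and 1502 CPM in G2-S4. On this CPM scale the 3 extreme salt libraries lay above every other library, while severe salt overlapped the controls. Summed FPKM, which divides each unigene's reads by its length, was 1637, 1324 and 1429 in G2-CK, 1254, 1502 and 1526 in G2-S3 and 1571, 1551 and 1784 in G2-S4, and there the controls overlapped both salt groups, while G2-S4 lay above G2-S3. The shares that follow are of summed FPKM. Group VII held 28.5% of the summed family FPKM in G2-CK, 40.6% in G2-S3 and 42.4% in G2-S4, and repressor-type group VIII held 4.34%, 8.46% and 9.53%. The DREB-type factors outside DREB1 and DREB2 went from 37.1% to 27.8% and 24.0%, and the remaining names, chiefly RAP2-7, from 11% to 5.97% and 3.67%. The family was dominated by few unigenes, the 5 most abundant holding 28.6% and the 20 most abundant 57.4% of its FPKM.

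**Figure D1:**
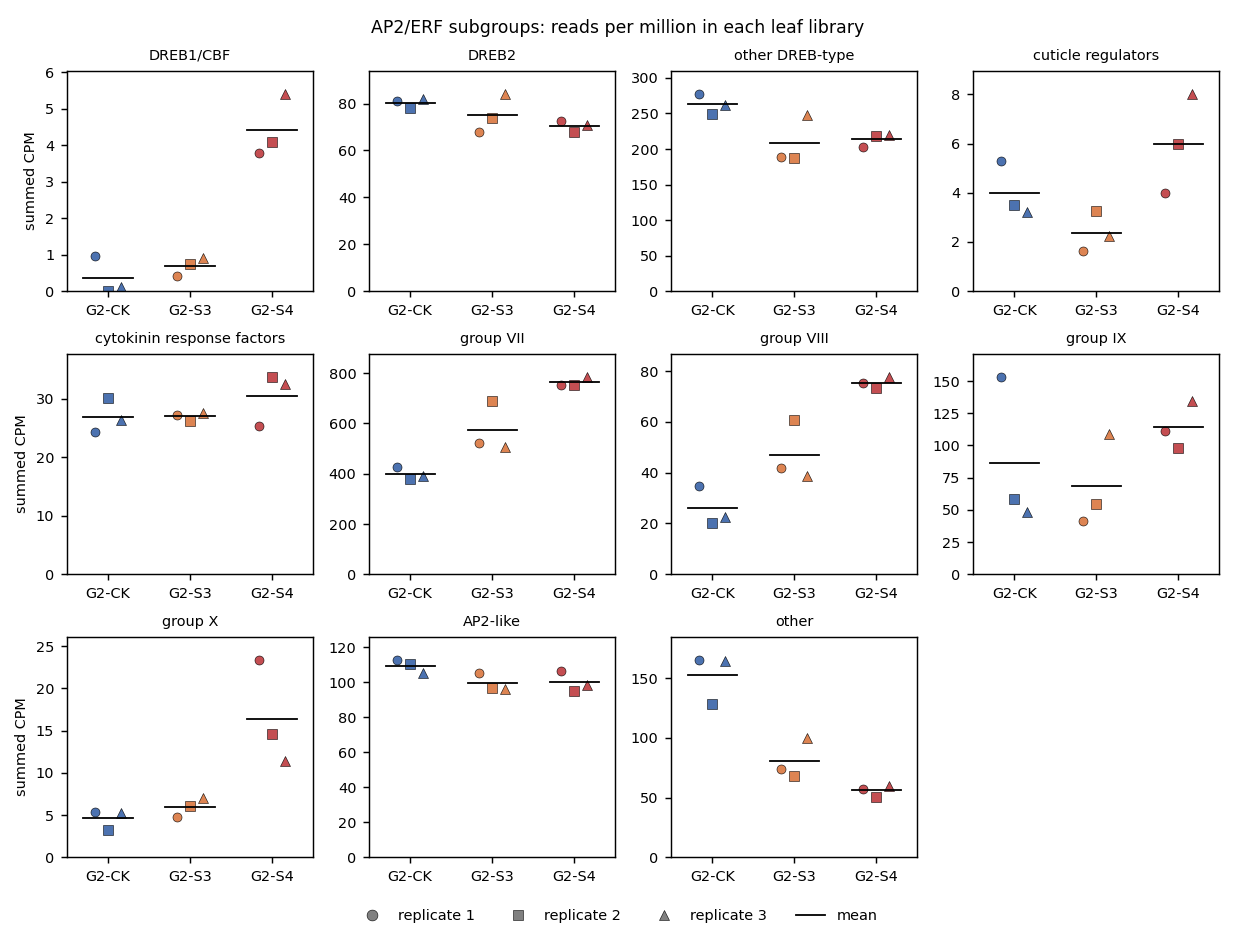
Summed CPM of each subgroup of the family in each library, with points for single libraries and a line for the mean of 3, over G2-CK, G2-S3 and G2-S4. Group VII lies at 381 to 426 CPM in G2-CK and 752 to 784 CPM in G2-S4, and the remaining names fall from 128 to 165 CPM to 50.8 to 59.7 CPM.

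Group VII, the oxygen-labile factors, had the highest summed CPM of the subgroups and the largest number of unigenes called higher in G2-S4. Its 42 unigenes summed to 426, 381 and 392 CPM in G2-CK, 524, 691 and 508 CPM in G2-S3 and 754, 752 and 784 CPM in G2-S4, with no overlap between any pair of groups. Of its 38 tested unigenes, 10 rose (26.3%) and none fell in G2-S3, beside 3.4% of all unigenes rising. In G2-S4, 16 rose and 1 fell (42.1% and 2.63%, beside 14.2% and 13.8% of all unigenes). The count of 10 depended on single libraries: omitting replicate 1, 2 or 3 of G2-CK left 6, 0 or 0, omitting replicate 1 or 2 of G2-S3 left 3 or 2, and omitting replicate 1 or 2 of G2-S4 left 6 or 5. The count of 16 stayed between 14 and 16 when any 1 library was left out. Of the 42 unigenes, 25 carried the name ERF1 and 10 the name ERF073, so these counts are of copies and not of separate genes. By name, 1 of 4 tested rose at each dose (25%, beside 10.5% of all names rising in G2-S3 and 31.6% in G2-S4). ERF1, whose sum also holds group IX copies, was counted apart and rose at both doses.

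Most of this level came from ERF1, a name covering 25 unigenes closest to rice EREBP1, a group VII factor, and 3 closest to a tomato group IX factor. Their sum was 383, 347 and 349.6 CPM in the G2-CK libraries, 479, 626 and 441 in G2-S3 and 596, 636 and 639 in G2-S4. The G2-S4 libraries all lay above the controls and overlapped G2-S3 (log2 fold change 0.79 ± 0.12, adjusted p = 0.00075). In G2-S3 the change was 0.52 ± 0.12, adjusted p = 0.0249, with adjusted p values of 0.0927 omitting replicate 2 of G2-CK, 0.0842 omitting replicate 3 of G2-CK and 0.0516 omitting replicate 1 of G2-S3. The most abundant unigene of the whole family, Cluster-14027.190274, carried 123, 105 and 118 FPKM in the G2-CK libraries, 166, 274 and 163 in G2-S3 and 202, 185 and 218 in G2-S4. The copy Cluster-14027.190278 rose in steps, with 31.7, 28.6 and 27.1 FPKM in the G2-CK libraries, 47, 68.3 and 43 in G2-S3 and 93.7, 96.1 and 90.8 in G2-S4, all 3 groups separate (log2 fold change 0.92 ± 0.17 in G2-S3 and 1.82 ± 0.17 in G2-S4, adjusted p = 0.0134 and 5.09e-05). The G2-S3 call of Cluster-14027.190278 had adjusted p values of 0.0698 omitting replicate 2 of G2-CK and 0.0691 omitting replicate 3 of G2-CK. A copy went the other way: Cluster-14027.190269 held 18.1, 19.8 and 23.6 FPKM in the G2-CK libraries, 22.4, 23.3 and 21.3 in G2-S3 and 5.69, 10.9 and 8.9 in G2-S4, and fell by 1.13 on the log2 scale in G2-S4 (adjusted p = 0.00195), all G2-S4 values lying under all others.

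Cluster-14027.197511 was a scarcer copy with the same order, at 2.3, 1.72 and 1.9 FPKM in the G2-CK libraries, 3, 5.21 and 5.3 in G2-S3 and 10.5, 10.4 and 11.5 in G2-S4 (G2-S4 2.59 ± 0.22, adjusted p = 2.43e-05). The tomato-type copy Cluster-14027.167789 was at 12.1, 3.9 and 3.41 FPKM in the G2-CK libraries, 0.72, 1.1 and 5 in G2-S3 and 1.4, 0.58 and 1.85 in G2-S4 (G2-S4 -2.21 ± 0.74, adjusted p = 0.046), lower in G2-S4 than in any control. That call had adjusted p values of 0.215 omitting replicate 1 of G2-CK, 0.0636 omitting replicate 2 of G2-CK, 0.0531 omitting replicate 3 of G2-CK, 0.0549 omitting replicate 2 of G2-S3, 0.118 omitting replicate 1 of G2-S4, 0.156 omitting replicate 2 of G2-S4 and 0.0827 omitting replicate 3 of G2-S4, with a log2 fold change of -1.37 in the fit that omitted replicate 1 of G2-CK.

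ERF073, known in Arabidopsis as HRE1, a factor induced by low oxygen, was higher under extreme salt. Its 10 unigenes summed to 50.0, 35 and 42.5 CPM in the G2-CK libraries, 40.4, 61.9 and 64.4 in G2-S3 and 157, 115 and 145 in G2-S4. The G2-S4 libraries stood apart from both other groups, which overlapped each other. The log2 fold change was 1.71 ± 0.20, adjusted p = 0.000157 in G2-S4 against the control and 1.33 ± 0.20, adjusted p = 0.00136 against G2-S3, and 0.39 ± 0.20, adjusted p = 0.218 in G2-S3 against the control. The main copy, Cluster-14027.154903, had 33.6, 21.7 and 28.8 FPKM in the G2-CK libraries, 22.9, 41.3 and 45.5 in G2-S3 and 111, 80.2 and 104 in G2-S4 (G2-S4 log2 fold change 1.94 ± 0.25, adjusted p = 0.000301). A minor copy, Cluster-14027.263281, had 1.2, 0.45 and 0.66 FPKM in the G2-CK libraries, 1.56, 2.53 and 2.24 in G2-S3 and 6.17, 4.46 and 8.84 in G2-S4 and rose by 3.20 ± 0.39 on the log2 scale in G2-S4 (adjusted p = 0.000194). Cluster-14027.12117, chosen after its values were seen, was below the list minimum in every control library and listed in 1 G2-S3 library. It reached 6.4, 3.63 and 2.04 FPKM in G2-S4. Absent from the controls, this copy could pass the read filter mainly through G2-S4. The filter therefore favoured a rise there, and no test result is given for it.

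RAP2-12, an Arabidopsis group VII activator held at the membrane until oxygen drops, was at 4.95, 3.92 and 3.86 CPM in the G2-CK libraries, 8.49, 6.06 and 6.45 in G2-S3 and 5.85, 5.06 and 5.43 in G2-S4. Severe salt lay above the controls without overlap (log2 fold change 0.72 ± 0.18, adjusted p = 0.0271), whereas extreme salt gave 0.36 ± 0.18, adjusted p = 0.12. The G2-S3 call had adjusted p values of 0.0969 omitting replicate 2 of G2-CK, 0.0915 omitting replicate 3 of G2-CK and 0.0916 omitting replicate 1 of G2-S3. RAP2-12 averages 5.56 CPM over the 9 libraries, so it contributes little to the subgroup total.

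**Figure D2:**
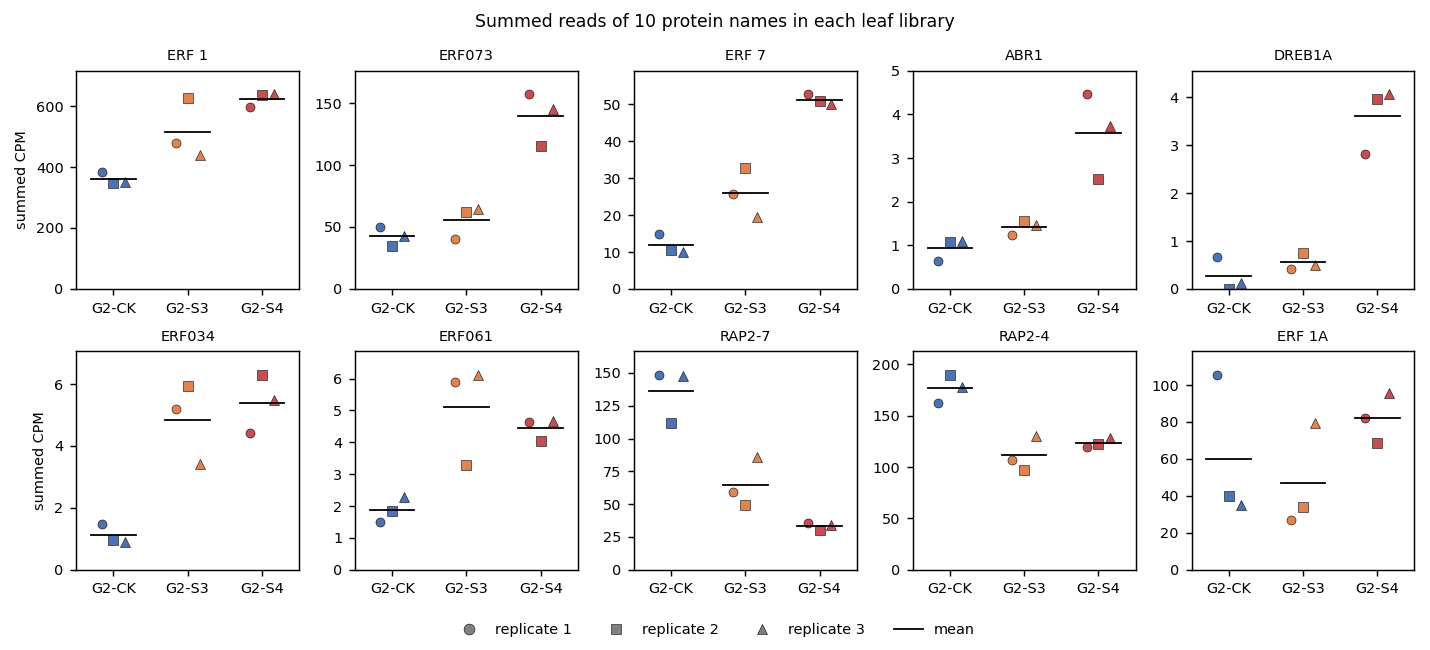
CPM of single protein names of the family in each library, with 1 panel per name, points for single libraries and a line for the mean of 3 in G2-CK, G2-S3 and G2-S4. The vertical axes differ between panels and start at 0, and the G2-S4 points of ERF073 and ERF7 lie above all control points while those of RAP2-7 lie below them.

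The partners of group VII in oxygen sensing were called in both directions. Of 15 tested names on this list (plant cysteine oxidases, the ubiquitin ligase PRT6, alcohol dehydrogenases, pyruvate decarboxylases and non-symbiotic hemoglobins), 4 rose and 1 fell in G2-S3 (33.3%, beside 16% of all names) and 5 rose and 2 fell in G2-S4 (46.7%, beside 51.6%). Plant cysteine oxidase 4, one of the enzymes that mark group VII factors for degradation in Arabidopsis, was at 15.6, 17.8 and 16.4 CPM in the G2-CK libraries, 9.43, 8.63 and 11 in G2-S3 and 5.4, 5.56 and 5.26 in G2-S4, with the 3 groups fully separate. It fell by 0.78 and then 1.62 on the log2 scale (adjusted p = 0.00459 and 1.65e-05). Plant cysteine oxidase 3 was at 8.36, 9.08 and 7.88 CPM in the G2-CK libraries, 6.88, 7.41 and 7.62 in G2-S3 and 5.81, 7.4 and 6.25 in G2-S4 and fell less (G2-S4 -0.38 ± 0.13, adjusted p = 0.0355). Non-symbiotic hemoglobin 2, which scavenges nitric oxide, was at 1.62, 0.859 and 0.493 CPM in the G2-CK libraries, 0.552, 2.61 and 2.54 in G2-S3 and 8.17, 8.41 and 7.15 in G2-S4 (G2-S4 log2 fold change 2.99 ± 0.55, adjusted p = 0.0018). Alcohol dehydrogenase 1, the last step of ethanol fermentation, was at 154, 116 and 117 CPM in the G2-CK libraries, 218, 332 and 161 in G2-S3 and 257, 251 and 324 in G2-S4 (G2-S4 1.10 ± 0.24, adjusted p = 0.00462).

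Group VIII, the factors with a repression motif, was more abundant at both doses. The 13 unigenes summed to 34.8, 20.3 and 22.7 CPM in G2-CK, 41.7, 60.7 and 38.7 CPM in G2-S3 and 75.3, 73.4 and 77.6 CPM in G2-S4, all 3 groups separate. Of 12 tested unigenes, 3 rose and none fell in G2-S3 (25% rising, beside 3.4% of all unigenes). In G2-S4, 6 rose and 1 fell (50% and 8.33%, beside 14.2% and 13.8%), with a median log2 fold change of 1.41. These counts are of copies: all 3 rises in G2-S3 were of ERF7, and those in G2-S4 were 4 of ERF7 and 2 of ERF12. By name, 1 of 5 tested rose in G2-S3 (20%, beside 10.5% of all names). In G2-S4, 2 names rose and 1 fell (40% and 20%, beside 31.6% and 20% of all names). ERF7, a repressor of abscisic acid responses in Arabidopsis, carried most of the increase at 14.9, 10.6 and 9.89 CPM in the G2-CK libraries, 25.7, 32.8 and 19.4 in G2-S3 and 52.7, 50.9 and 50.1 in G2-S4. Its log2 fold change was 1.14 ± 0.20, adjusted p = 0.0088 in G2-S3, 2.12 ± 0.20, adjusted p = 5.56e-05 in G2-S4 and 0.98 ± 0.20, adjusted p = 0.00506 between the doses, and the G2-S3 and G2-S4 calls were kept in each of the 9 fits that left out 1 library. The salt groups did not overlap the controls or each other.

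The ERF7 unigenes differed in their values at severe salt. Cluster-14027.139838 was at 10.4, 9.19 and 4.97 FPKM in the G2-CK libraries, 30.3, 41.2 and 20.7 in G2-S3 and 39.7, 41.7 and 52.3 in G2-S4, high in every library of both salt groups (log2 fold change 2.04 ± 0.34 and 2.54 ± 0.34). Cluster-14027.195358 was at 1.64, 1.19 and 1.36 FPKM in the G2-CK libraries, 4.1, 3.05 and 2.99 in G2-S3 and 5.16, 5.3 and 3.97 in G2-S4, again with both salt groups above the controls. Cluster-14027.117169, by contrast, had 2.68, 2.12 and 1.9 FPKM in the G2-CK libraries, 2.52, 4.42 and 2.04 in G2-S3 and 11, 9.21 and 9.83 in G2-S4, so that severe salt overlapped the controls and only extreme salt stood above them (G2-S4 2.30 ± 0.27, adjusted p = 0.000162). Whether these copies differ in their response to severe salt was not tested. ERF12, also a repressor, was at 16.8, 7.4 and 10.5 CPM in the G2-CK libraries, 14.4, 24.8 and 16.5 in G2-S3 and 20.7, 19.9 and 25.1 in G2-S4. The G2-S4 change of ERF12 was 0.92 ± 0.29, adjusted p = 0.0265, with adjusted p values of 0.0797 omitting replicate 2 of G2-CK, 0.082 omitting replicate 3 of G2-CK, 0.0503 omitting replicate 1 of G2-S4 and 0.0754 omitting replicate 3 of G2-S4.

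Group IX, the activators of the ethylene and jasmonate response, varied widely between the libraries of a group. Its sum was 153, 58.6 and 48.2 CPM in G2-CK, 41.5, 54.3 and 109 CPM in G2-S3 and 111, 98.4 and 134 CPM in G2-S4, where G2-CK replicate 1 was the highest library of all and G2-S3 replicate 3 the highest of its group. None of its 18 tested unigenes changed in G2-S3 by edgeR, with 2 at an unadjusted p under 0.05 and 0 by DESeq2. In G2-S4, 4 rose and 3 fell (22.2% and 16.7%, beside 14.2% and 13.8% of all unigenes). ERF1A, which binds the GCC box in Arabidopsis, was at 106, 40.1 and 34.9 CPM in the G2-CK libraries, 27.1, 33.8 and 79.4 in G2-S3 and 82.3, 68.6 and 95.8 in G2-S4, the groups overlapping (G2-S4 0.45 ± 0.48, adjusted p = 0.46). ERF1B, the integrator of ethylene and jasmonate signals, was at 22.8, 7.55 and 4.48 CPM in the G2-CK libraries, 4.12, 6.86 and 12.8 in G2-S3 and 14, 16.7 and 19.9 in G2-S4 (G2-S4 0.54 ± 0.56, adjusted p = 0.452), and both names were again highest in G2-CK replicate 1.  Cluster-14027.79334, under the name ERF5, was at 4.78, 2.21 and 1.91 FPKM in the G2-CK libraries, 2.73, 3.54 and 5.56 in G2-S3 and 1.45, 0.88 and 1.85 in G2-S4.

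Beneath the ERF1A sum, which did not pass the test, single copies moved in opposite directions. Cluster-14027.150801 rose from 10.4, 3.59 and 2.25 FPKM in G2-CK and 4.65, 3.78 and 10.9 FPKM in G2-S3 to 18.4, 25.6 and 29.6 FPKM in G2-S4 (log2 fold change 2.30 ± 0.53, adjusted p = 0.00834). Cluster-14027.150799 went from 14.3, 6.76 and 3.51 FPKM through 2.23, 2.35 and 7.17 FPKM to 1.41, 0.54 and 2.23 FPKM (-2.42 ± 0.63, adjusted p = 0.016), and Cluster-14027.167150 from 4.1, 1.62 and 2.23 FPKM to below the list minimum, 0.34 and 0.4 FPKM (-2.80 ± 0.58, adjusted p = 0.00492). The first copy was highest under extreme salt and the other two were lower there than in any control library. The most abundant copy, Cluster-14027.150802, at 58, 20.3 and 22.6 FPKM in the G2-CK libraries, 13.6, 17.3 and 42.3 in G2-S3 and 31.3, 24.8 and 37.1 in G2-S4, was high in G2-CK replicate 1 and overlapped between all groups. The G2-S4 calls of these copies are not equally firm: that of Cluster-14027.150801 was kept in each of the 9 fits that left out 1 library, that of Cluster-14027.150799 lay at adjusted p values of 0.0766 omitting replicate 1 of G2-CK, 0.0615 omitting replicate 1 of G2-S4 and 0.0666 omitting replicate 2 of G2-S4, and that of Cluster-14027.167150 was kept in each of the 9 fits that left out 1 library.

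Among the scarce group IX names, ERF098, chosen after its values were seen, was listed in no control library. Its sum was 0.722, 1.14 and 0.125 CPM in G2-S3 and 1.61, 2.44 and 2.4 CPM in G2-S4. Absent from the controls, it could pass the read filter only through the salt groups. The filter therefore favoured a rise, and no test result is given for it. ERF095, likewise chosen after its values were seen, was listed in the 3 G2-S4 libraries and in no other, at 0.67, 0.46 and 0.899 CPM.

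Group X, which includes ABR1, a repressor of the abscisic acid response in Arabidopsis, was scarce and stood higher under extreme salt. Its 11 unigenes summed to 5.39, 3.29 and 5.21 CPM in G2-CK, 4.8, 6.1 and 7.03 CPM in G2-S3 and 23.3, 14.6 and 11.4 CPM in G2-S4, the last above all other libraries. Of 8 tested unigenes, 4 rose and none fell in G2-S4 against the control (50% rising, beside 14.2% of all unigenes), with a median log2 fold change of 1.75. Between the doses, 5 were higher and 1 lower in G2-S4 (62.5% and 12.5%, beside 7.24% and 6.88%). The sums of its 3 names, all under 5 CPM on average and chosen after their values were seen, each rose. ABR1 was at 0.634, 1.08 and 1.11 CPM in the G2-CK libraries, 1.23, 1.56 and 1.46 in G2-S3 and 4.47, 2.53 and 3.72 in G2-S4 (G2-S4 1.92 ± 0.33, adjusted p = 0.00126). ERF113, linked in Arabidopsis to wounding and regeneration, was at 3.09, 1.49 and 2.67 CPM in the G2-CK libraries, 1.02, 0.968 and 4.45 in G2-S3 and 14.7, 9.33 and 4.11 in G2-S4 (G2-S4 1.96 ± 0.64, adjusted p = 0.0286), with G2-S4 replicate 3 inside the range of G2-S3. ERF110 was at 1.66, 0.71 and 1.44 CPM in the G2-CK libraries, 2.55, 3.62 and 1.04 in G2-S3 and 4.15, 2.67 and 3.51 in G2-S4 (G2-S4 1.44 ± 0.47, adjusted p = 0.0289). ERF113 had adjusted p values of 0.0502 omitting replicate 1 of G2-CK, 0.0958 omitting replicate 2 of G2-CK, 0.0676 omitting replicate 3 of G2-CK, 0.109 omitting replicate 1 of G2-S4 and 0.0591 omitting replicate 2 of G2-S4, and ERF110 of 0.0928 omitting replicate 2 of G2-CK, 0.0589 omitting replicate 3 of G2-CK, 0.0832 omitting replicate 1 of G2-S4 and 0.0583 omitting replicate 3 of G2-S4.

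The DREB1 factors, also called CBF and best known as the switch of cold acclimation, stayed under 1 CPM in control leaves and stood higher under extreme salt. Their 12 unigenes summed to 0.951, 0 and 0.123 CPM in G2-CK, 0.425, 0.758 and 0.916 CPM in G2-S3 and 3.8, 4.09 and 5.39 CPM in G2-S4. Of the 12, 4 had enough reads to test. With the controls this low, a unigene could pass the read filter mainly through G2-S4, so the filter favoured a rise there. Within that limit, 3 of the 4 rose in G2-S4 (75%, beside 14.2% of all unigenes), with a median log2 fold change of 2.36 over the 4. All 3 were copies of the 1 name DREB1A. By name, 1 of 2 tested rose (50%, beside 31.6% of all names). None of the 4 unigenes changed in G2-S3 by edgeR, with 0 at an unadjusted p under 0.05 and 0 by DESeq2. DREB1A, chosen after its values were seen, was at 0.673, 0 and 0.123 CPM in the G2-CK libraries, 0.425, 0.758 and 0.499 in G2-S3 and 2.81, 3.95 and 4.06 in G2-S4, with all extreme salt libraries above all others (G2-S4 3.75 ± 0.85, adjusted p = 0.00523 against the control and 2.68 ± 0.79, adjusted p = 0.0275 against G2-S3). One of its copies, Cluster-14027.18659, had 1.07, below the list minimum and 0.58 FPKM in the G2-CK libraries, 0.55, 0.69 and below the list minimum in G2-S3 and 3.65, 5.21 and 4.57 in G2-S4 (G2-S4 2.80 ± 0.38, adjusted p = 0.000409). The G2-S4 call of DREB1A was kept in each of the 9 fits that left out 1 library. Its log2 fold change against the control became 5.80 in the fit that omitted replicate 1 of G2-CK. The call against G2-S3 had adjusted p values of 0.0925 omitting replicate 1 of G2-S3, 0.0512 omitting replicate 2 of G2-S3, 0.0629 omitting replicate 3 of G2-S3, 0.0547 omitting replicate 1 of G2-S4, 0.0808 omitting replicate 2 of G2-S4 and 0.0697 omitting replicate 3 of G2-S4.

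The DREB2 factors, the drought and heat branch that in Arabidopsis is held in check by ubiquitin ligases, showed no such step. Their 15 unigenes summed to 81, 78.3 and 82 CPM in G2-CK, 68, 73.7 and 83.9 CPM in G2-S3 and 72.6, 67.9 and 70.9 CPM in G2-S4. None of 10 tested unigenes changed in G2-S3 by edgeR, with 0 at an unadjusted p under 0.05 and 0 by DESeq2. In G2-S4, 1 fell (10%, beside 13.8% of all unigenes). DREB2A was at 17.2, 17.1 and 17.9 CPM in the G2-CK libraries, 16.3, 16.4 and 21.3 in G2-S3 and 19.9, 21.9 and 21.3 in G2-S4, with G2-S4 a little above the controls (0.27 ± 0.11, adjusted p = 0.0698). DREB2B was at 31, 32.3 and 31.3 CPM in the G2-CK libraries, 27.1, 31.6 and 27.6 in G2-S3 and 27, 22.6 and 23.7 in G2-S4, with G2-S4 below them (-0.37 ± 0.09, adjusted p = 0.00903). DREB2D was at 32.8, 28.8 and 32.8 CPM in the G2-CK libraries, 24.6, 25.7 and 35.2 in G2-S3 and 25.8, 23.4 and 25.8 in G2-S4 (G2-S4 -0.33 ± 0.14, adjusted p = 0.0665). Only DREB2B passed the test, and its call was kept in each of the 9 fits that left out 1 library.

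Gene classes known as DREB targets in Arabidopsis were mostly higher under extreme salt. Of the 9 names tested (dehydrins, galactinol synthases, cold-regulated 413 proteins and a low temperature-induced protein), 4 rose and none fell in G2-S3 (44.4%, beside 16% of all names called) and 8 rose and none fell in G2-S4, where the median log2 fold change was 2.26, beside 31.6% of all names rising. Dehydrin DHN1, a protein that protects membranes and enzymes in drying cells, was at 0.119, 0.149 and 0.575 CPM in the G2-CK libraries, 1.87, 2.15 and 1.96 in G2-S3 and 101, 52.4 and 39.8 in G2-S4, all 3 groups separate (G2-S3 2.83 ± 0.63, adjusted p = 0.0189, and G2-S4 7.84 ± 0.53, adjusted p = 1.15e-05). Dehydrin DHN3 was at 0.475, 0.112 and 0.411 CPM in the G2-CK libraries, 0.595, 0.421 and 0.874 in G2-S3 and 44.2, 35.9 and 26.3 in G2-S4 (G2-S4 6.73 ± 0.38, adjusted p = 7.13e-06). Dehydrin COR410, abundant already in control leaves and chosen after its values were seen, was at 178, 215 and 192 CPM in the G2-CK libraries, 351, 268 and 299.9 in G2-S3 and 759.5, 686 and 557 in G2-S4 (G2-S4 1.78 ± 0.14, adjusted p = 2.38e-05).

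Upstream of the DREB factors, 2 of 4 tested names (50%, beside 51.6% of all names called) rose in G2-S4, among them ICE1, the activator of CBF genes in cold, at 112, 96.2 and 96.7 CPM in the G2-CK libraries, 106, 119.7 and 96 in G2-S3 and 157, 184 and 202 in G2-S4 (G2-S4 0.83 ± 0.12, adjusted p = 0.000419), where extreme salt lay above every other library. The other was DRIP2, a ubiquitin ligase that marks DREB2A for degradation, at 35.3, 31.2 and 35.6 CPM in the G2-CK libraries, 35.4, 31.5 and 44.5 in G2-S3 and 42.5, 43.3 and 41.8 in G2-S4 (G2-S4 0.32 ± 0.12, adjusted p = 0.0472).

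**Figure D3:**
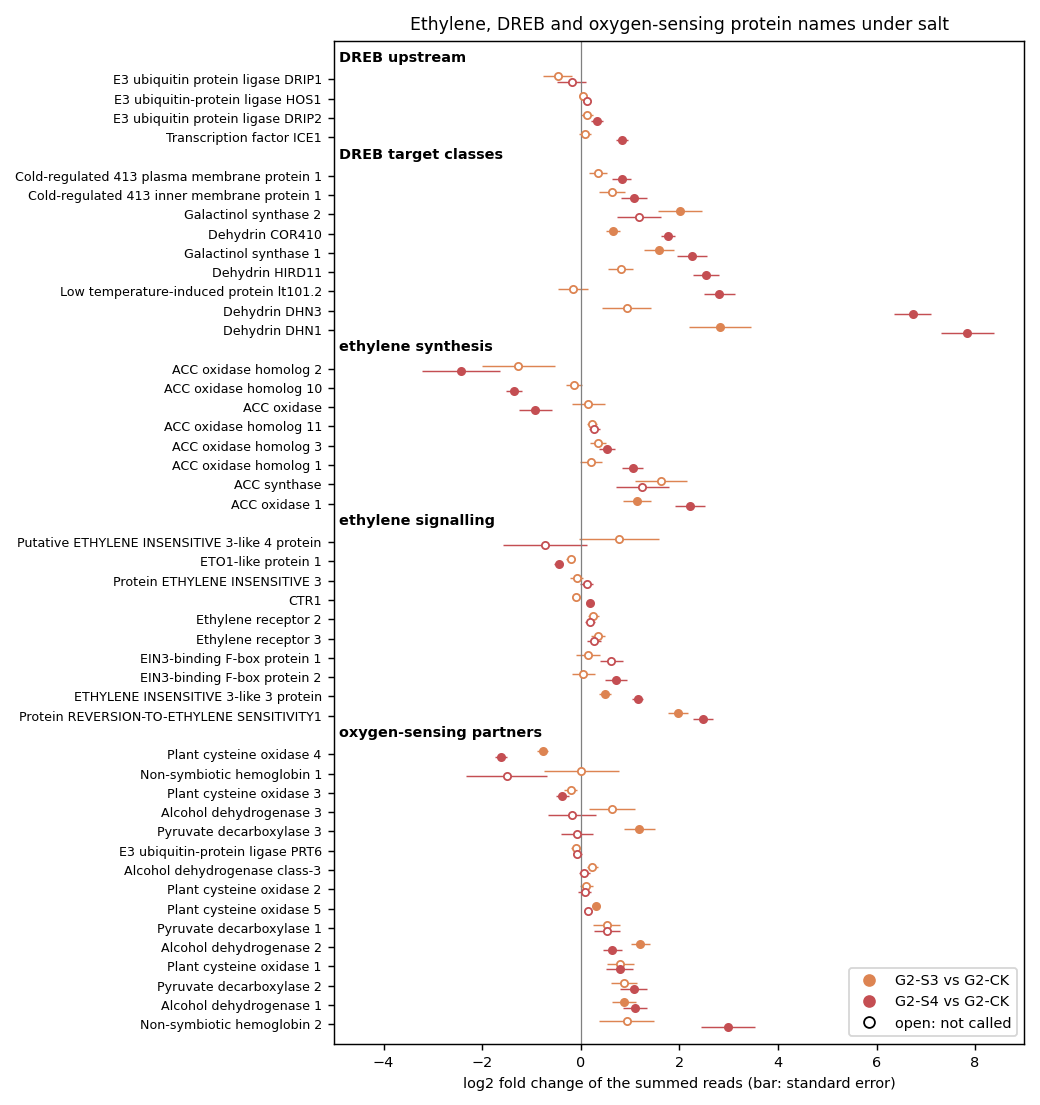
Log2 fold change with its standard error for tested protein names of the ethylene, oxygen-sensing and DREB lists, for G2-S3 and G2-S4 against G2-CK. Only names listed in every group are drawn, with filled points for calls. The dehydrins DHN1 and DHN3 lie farthest to the right in G2-S4, at 7.84 and 6.73, and Plant cysteine oxidase 4 lies left of 0 at both doses.

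The other DREB-type factors summed lower in CPM under salt, with single names in both directions. Their 33 unigenes summed to 277, 249.6 and 262 CPM in G2-CK, 189, 187 and 247 CPM in G2-S3 and 203, 219 and 219.9 CPM in G2-S4, every salt library lying below every control. Of 24 tested, 3 rose and 3 fell in G2-S3 (12.5% each, beside 3.4% and 2.32% of all unigenes). In G2-S4, 5 rose and 6 fell (20.8% and 25%, beside 14.2% and 13.8%). RAP2-4, a factor of light and drought responses in Arabidopsis, carried the decrease at 163, 189.8 and 178 CPM in the G2-CK libraries, 107, 97 and 130.5 in G2-S3 and 119, 122 and 128 in G2-S4, with no overlap between controls and either salt group. It fell by 0.67 and 0.52 on the log2 scale (adjusted p = 0.00713 and 0.00393), and both calls were kept in each of the 9 fits that left out 1 library. Its main copy, Cluster-14027.151482, was at 105, 124 and 113 FPKM in the G2-CK libraries, 59.6, 54.9 and 74.7 in G2-S3 and 65.7, 61.1 and 69.7 in G2-S4 (G2-S3 -0.78 ± 0.12, adjusted p = 0.00552). The salt doses overlapped in the sum and in this copy. The next copy, Cluster-14027.162899, had 66, 78.3 and 70.2 FPKM in the G2-CK libraries, 45.2, 36.5 and 46.9 in G2-S3 and 43.3, 43.7 and 45.5 in G2-S4. Cluster-14027.156597 had 55.2, 76.2 and 72.7 FPKM in the G2-CK libraries, 34.5, 28.6 and 57 in G2-S3 and 33.5, 42.9 and 38.6 in G2-S4, where replicate 3 of G2-S3 reached the range of the controls.

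RAP2-10 was the other abundant name, at 72.5, 27.7 and 38 CPM in the G2-CK libraries, 25.9, 38.2 and 48.7 in G2-S3 and 36.2, 43.6 and 45.2 in G2-S4, where G2-CK replicate 1 was again the highest and the groups overlapped (G2-S4 -0.15 ± 0.33, adjusted p = 0.742). Its copy Cluster-14027.153106 was at 119, 49.1 and 63.8 FPKM in the G2-CK libraries, 41.1, 57.2 and 73.4 in G2-S3 and 54.7, 64.3 and 66.6 in G2-S4. ERF008, at 33, 25.7 and 35.7 CPM in the G2-CK libraries, 40.0, 35.6 and 51.9 in G2-S3 and 31.6, 34.2 and 27.2 in G2-S4, did not pass the test either (G2-S4 -0.02 ± 0.17, adjusted p = 0.922). Scarcer names were called in both directions, all chosen after their values were seen. ERF034 was at 1.47, 0.971 and 0.903 CPM in the G2-CK libraries, 5.18, 5.94 and 3.41 in G2-S3 and 4.42, 6.3 and 5.48 in G2-S4, with both salt groups above the controls (2.12 ± 0.29, adjusted p = 0.00306 in G2-S3 and 2.27 ± 0.29, adjusted p = 0.000233 in G2-S4). ERF061 was at 1.51, 1.83 and 2.3 CPM in the G2-CK libraries, 5.9, 3.28 and 6.12 in G2-S3 and 4.64, 4.04 and 4.66 in G2-S4, likewise separate (1.44 ± 0.27, adjusted p = 0.0107 in G2-S3 and 1.24 ± 0.27, adjusted p = 0.00444 in G2-S4). Of the ERF034 copies, Cluster-14027.263866 had 0.91, 0.4 and below the list minimum FPKM in the G2-CK libraries, 1.57, 2.69 and 1.75 in G2-S3 and 3.28, 4.35 and 4.61 in G2-S4 (G2-S4 3.04 ± 0.40, adjusted p = 0.000346). ERF060 was at 1.03, 0.411 and 0.246 CPM in the G2-CK libraries, 0.637, 1.35 and 0.541 in G2-S3 and 2.28, 2.85 and 2.87 in G2-S4, every G2-S4 library above all others (2.23 ± 0.56, adjusted p = 0.0084). The G2-S3 calls of ERF034 and ERF061 were kept without any 1 library. RAP2-13 was lower in G2-S4, at 3.01, 1.46 and 3.41 CPM in the G2-CK libraries, 0.807, 0.968 and 1.66 in G2-S3 and 0.804, 0.735 and 1.16 in G2-S4 (-1.54 ± 0.44, adjusted p = 0.0157, with adjusted p values of 0.051 omitting replicate 1 of G2-CK, 0.0657 omitting replicate 3 of G2-CK and 0.0545 omitting replicate 2 of G2-S4).

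RAP2-7, also known as TOE1, an AP2-type repressor of flowering that is a target of microRNA172 in Arabidopsis, had the largest fall in CPM among the names of the family. Its 19 unigenes summed to 149, 112 and 147 CPM in the G2-CK libraries, 58.9, 49.3 and 86.1 in G2-S3 and 35.4, 30.1 and 33.8 in G2-S4, the 3 groups separate and in the order of the dose. The log2 fold change was -1.07 ± 0.20, adjusted p = 0.01 in G2-S3, -2.04 ± 0.20, adjusted p = 6.52e-05 in G2-S4 and -0.97 ± 0.20, adjusted p = 0.00574 between the doses, and the calls against the control were kept in each of the 9 fits. Cluster-14027.124303 was at 60.9, 48.4 and 62.9 FPKM in the G2-CK libraries, 23.1, 17.9 and 34.6 in G2-S3 and 13.6, 10.1 and 11.3 in G2-S4. Cluster-14027.153439 was at 57.8, 39.6 and 55.8 FPKM in the G2-CK libraries, 21, 17.5 and 31.6 in G2-S3 and 12.9, 11.2 and 13.9 in G2-S4. Both copies, the most abundant of the name, followed the order of the sum, and G2-S3 replicate 3 was the nearest to the controls in each. The scarcer copy Cluster-14027.165242 was at 16.1, 11.7 and 17 FPKM in the G2-CK libraries, 3.85, 3.24 and 8.1 in G2-S3 and 2.37, 2.24 and 1.5 in G2-S4 (G2-S4 -2.74 ± 0.33, adjusted p = 0.000192). Cluster-14027.141441 was at 6.53, 6.11 and 7.22 FPKM in the G2-CK libraries, 1.38, 0.7 and 2.77 in G2-S3 and 0.57, below the list minimum and 0.75 in G2-S4 (G2-S4 -3.46 ± 0.44, adjusted p = 0.000267).

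WRI1, an activator of fatty acid synthesis, chosen after its values were seen, was at 1.19, 1.27 and 1.6 CPM in the G2-CK libraries, 2.63, 1.73 and 1.91 in G2-S3 and 2.81, 2.57 and 2.82 in G2-S4 (G2-S4 1.01 ± 0.26, adjusted p = 0.01). At4g13040 was at 15, 15.2 and 15.7 CPM in the G2-CK libraries, 12.4, 16.7 and 11.7 in G2-S3 and 19.2, 18.2 and 23.1 in G2-S4, higher in G2-S4 without overlap (0.40 ± 0.15, adjusted p = 0.0455, with adjusted p values of 0.103 omitting replicate 1 of G2-CK, 0.103 omitting replicate 2 of G2-CK, 0.0896 omitting replicate 3 of G2-CK, 0.0539 omitting replicate 1 of G2-S3, 0.066 omitting replicate 1 of G2-S4 and 0.143 omitting replicate 3 of G2-S4).

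**Figure D4:**
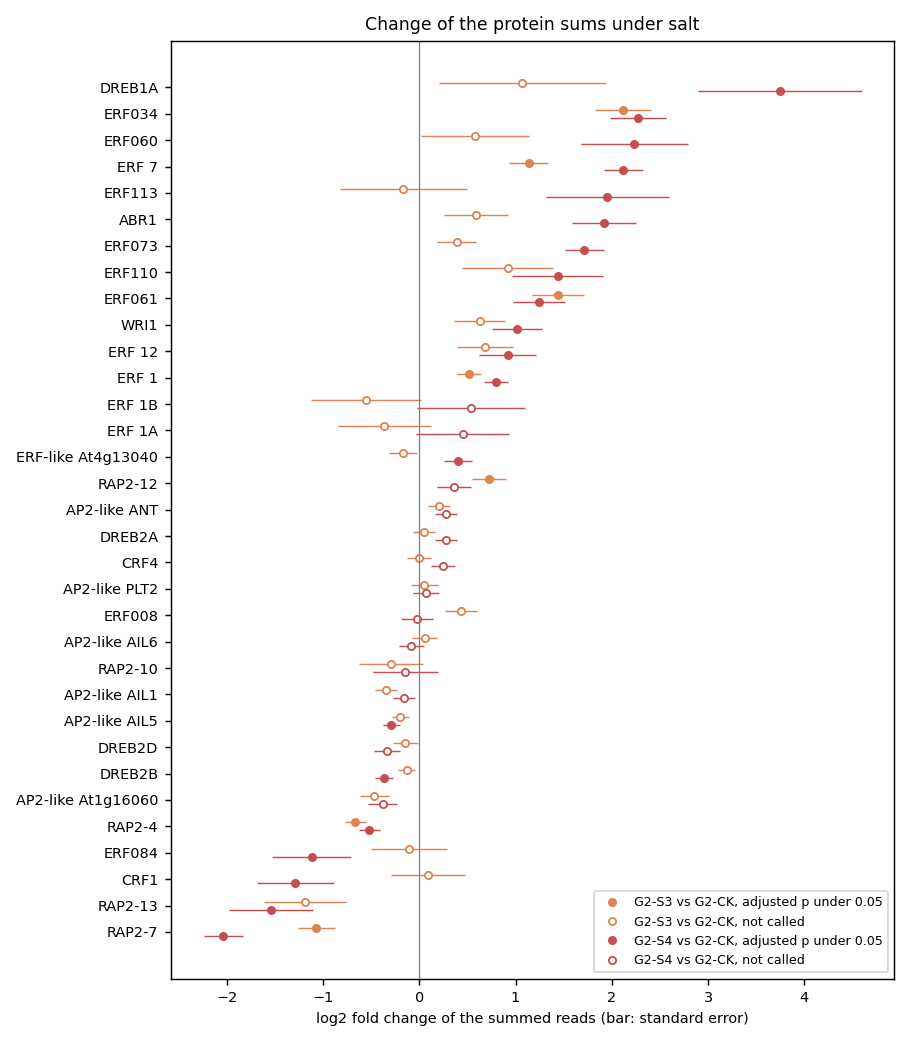
Log2 fold change with its standard error of 33 protein names of the family (those of at least 5 CPM or called against the control, and listed in every group) in G2-S3 and G2-S4 against G2-CK, with filled points for calls. RAP2-7 lies at -1.07 and -2.04, and ERF7 at 1.14 and 2.12.

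The AP2-like branch, which keeps meristem and organ growth going, was taken here as the names described as AP2-like. RAP2-7, also of AP2 type, was grouped with the remaining names, and 7 of its 14 tested unigenes fell in G2-S4. The 58 AP2-like unigenes summed to 113, 110.2 and 106 CPM in G2-CK, 105, 96.7 and 96.3 CPM in G2-S3 and 106, 95 and 98.4 CPM in G2-S4, the last overlapping the controls. None of 35 tested unigenes changed in G2-S3 by edgeR, with 8 at an unadjusted p under 0.05 and 2 by DESeq2. In G2-S4, 2 rose and 5 fell (5.71% and 14.3%, beside 14.2% and 13.8% of all unigenes). AIL5, a regulator of organ initiation, was at 43.7, 48 and 42.4 CPM in the G2-CK libraries, 42.4, 38.4 and 36.3 in G2-S3 and 37.3, 33.9 and 38.5 in G2-S4 (G2-S4 -0.29 ± 0.09, adjusted p = 0.0205, with adjusted p values of 0.0851 omitting replicate 2 of G2-CK and 0.0839 omitting replicate 2 of G2-S4). Its copy Cluster-14027.128521 was at 1.55, 2.57 and 1.3 FPKM in the G2-CK libraries, 1.69, 0.75 and 0.97 in G2-S3 and 0.39, 0.5 and 0.35 in G2-S4 (G2-S4 -2.01 ± 0.37, adjusted p = 0.00252), every G2-S4 library below every control. ANT, which promotes organ size, was at 16, 17 and 16.4 CPM in the G2-CK libraries, 20.6, 18.4 and 18.1 in G2-S3 and 22.6, 20.4 and 16.9 in G2-S4 (G2-S4 0.28 ± 0.12, adjusted p = 0.071). AIL6, which acts with ANT in flower development, was at 5.51, 5.08 and 5.13 CPM in the G2-CK libraries, 5.69, 5.39 and 5.24 in G2-S3 and 5.4, 4.73 and 4.71 in G2-S4 (G2-S4 -0.08 ± 0.13, adjusted p = 0.628). Neither name passed the test. The G2-S3 libraries of ANT all lay above its controls, while its G2-S4 libraries overlapped them. For AIL6 the groups overlapped. PLT2, a root stem-cell regulator, was at 12.4, 9.79 and 8.87 CPM in the G2-CK libraries, 10.9, 11.2 and 10.2 in G2-S3 and 10.9, 10.1 and 11.6 in G2-S4 (G2-S4 0.07 ± 0.14, adjusted p = 0.712). AIL1, of the same branch, was at 14.1, 11.8 and 12.5 CPM in the G2-CK libraries, 10.4, 9.01 and 10.7 in G2-S3 and 11.7, 12.2 and 10.4 in G2-S4 (G2-S4 -0.16 ± 0.12, adjusted p = 0.281). At1g16060, the name with most unigenes in the branch, was at 17.1, 13.4 and 16.6 CPM in the G2-CK libraries, 11, 10.9 and 12.2 in G2-S3 and 14, 9.7 and 12.5 in G2-S4 (G2-S4 -0.38 ± 0.15, adjusted p = 0.06).

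Cytokinin response factor CRF4, of a group that carries cytokinin and stress signals, was at 22.1, 28.6 and 24.6 CPM in the G2-CK libraries, 25.9, 24.3 and 24.8 in G2-S3 and 24.8, 32.6 and 31.8 in G2-S4 (G2-S4 0.25 ± 0.13, adjusted p = 0.135). CRF1, chosen after its values were seen, was at 2.26, 1.42 and 1.89 CPM in the G2-CK libraries, 1.36, 1.81 and 2.75 in G2-S3 and 0.491, 1.01 and 0.77 in G2-S4 (G2-S4 -1.29 ± 0.40, adjusted p = 0.0246, with adjusted p values of 0.0812 omitting replicate 1 of G2-CK, 0.0603 omitting replicate 3 of G2-CK, 0.0761 omitting replicate 1 of G2-S4 and 0.0548 omitting replicate 3 of G2-S4). ERF084, of group VIII and likewise chosen, was at 1.7, 1.08 and 1.19 CPM in the G2-CK libraries, 0.849, 1.26 and 1.58 in G2-S3 and 0.447, 0.735 and 0.642 in G2-S4 (G2-S4 -1.12 ± 0.41, adjusted p = 0.0466), and this call was lost in each of the 9 fits that left out 1 library, at adjusted p values of 0.053 to 0.159. The subgroup of cytokinin response factors had 1 of 3 tested unigenes lower in G2-S4 (33.3%, beside 13.8% of all unigenes). The cuticle regulators had 1 of 5 higher (20%, beside 14.2%), and both shares rest on 1 unigene. WIN1, an activator of wax and cutin synthesis, chosen after its values were seen, was at 3.57, 2.43 and 1.31 CPM in the G2-CK libraries, 1.23, 2.4 and 1.29 in G2-S3 and 2.77, 4.55 and 6.85 in G2-S4, higher in G2-S4 than in G2-S3 (1.52 ± 0.46, adjusted p = 0.0303, with adjusted p values of 0.101 omitting replicate 1 of G2-S3, 0.0801 omitting replicate 3 of G2-S3, 0.0644 omitting replicate 2 of G2-S4 and 0.101 omitting replicate 3 of G2-S4).

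Genes of ethylene synthesis and signalling were compared as the hormone's side of the pathway. In synthesis, 1 of 8 tested names rose and none fell in G2-S3 (12.5%, beside 16% of all names), and 3 rose and 3 fell in G2-S4 (75%, beside 51.6% of all names). 1-aminocyclopropane-1-carboxylate oxidase 1, the enzyme that releases ethylene, was at 54.9, 38 and 37.9 CPM in the G2-CK libraries, 138, 94.3 and 55.4 in G2-S3 and 208, 182 and 216 in G2-S4, with extreme salt above all others (1.14 ± 0.29, adjusted p = 0.0302 in G2-S3 and 2.21 ± 0.30, adjusted p = 0.000312 in G2-S4). Of the oxidase homologs, whose own product is less certain, homolog 1 was at 17.2, 15 and 14.1 CPM in the G2-CK libraries, 15.9, 14.5 and 22.8 in G2-S3 and 38.6, 34.4 and 23.1 in G2-S4 (G2-S4 adjusted p = 0.00344). Homolog 2 was at 4.04, 8.71 and 8.05 CPM in the G2-CK libraries, 2.04, 2.19 and 4.37 in G2-S3 and 1.92, 0 and 1.88 in G2-S4 (G2-S4 -2.44 ± 0.79, adjusted p = 0.0283). Only this 1 of the 3 names called lower is described here.

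In signalling, 2 of 11 tested names rose in G2-S3 (18.2%, beside 16% of all names) and 4 rose and 2 fell in G2-S4 (54.5%, beside 51.6%). REVERSION-TO-ETHYLENE SENSITIVITY1, a negative regulator of the response that acts with the receptor, was at 3.68, 2.76 and 4.31 CPM in the G2-CK libraries, 12.2, 17.7 and 12.2 in G2-S3 and 18.9, 19.9 and 21.1 in G2-S4, both salt groups above the controls (1.97 ± 0.20, adjusted p = 0.00118 in G2-S3 and 2.48 ± 0.20, adjusted p = 2.39e-05 in G2-S4). EIN3-LIKE 3, a transcription factor of the same family as EIN3, was at 21.1, 18.8 and 18.4 CPM in the G2-CK libraries, 23.5, 30.6 and 27.8 in G2-S3 and 44.3, 46.3 and 38.9 in G2-S4 (G2-S4 1.15 ± 0.12, adjusted p = 6.71e-05). ETO1-like protein 1, of the family that restrains ethylene synthesis in Arabidopsis, was at 124, 123 and 138 CPM in the G2-CK libraries, 106, 102 and 125 in G2-S3 and 96.2, 98.8 and 87.4 in G2-S4 (G2-S4 -0.45 ± 0.10, adjusted p = 0.00385). Ethylene receptor 4 was at 2.81, 1.46 and 1.81 CPM in G2-CK and was listed in no G2-S4 library.

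Copies of some names were called in both directions. Of the 34 names with at least 2 tested unigenes, 4 had copies called in both directions in G2-S4 against the control: ERF1 with 14 higher and 2 lower of 27, ERF1A with 1 higher and 2 lower of 6, AIL5 with 1 higher and 3 lower of 7, and PLT1, a root stem-cell regulator, with 1 higher and 1 lower of 2. A de novo assembly of a polyploid can split 1 gene over several unigenes or divide reads between near-identical copies, and the strand used in counting is not given in the sources used here, so the split between copies is less certain than the sum.

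**Figure D5:**
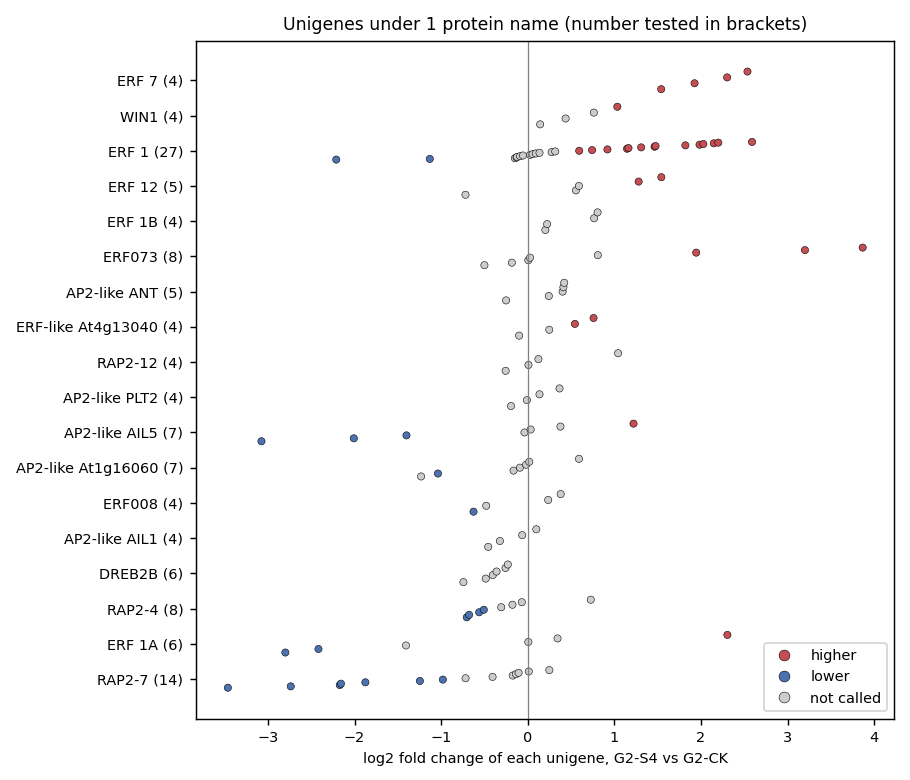
Log2 fold change in G2-S4 against G2-CK of every tested unigene of the protein names with most copies, in red for copies called higher, blue for copies called lower at an adjusted p under 0.05 and grey for the others. ERF1 and ERF1A have coloured points on both sides of 0, and all coloured points of RAP2-7 lie to the left.

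Of the 177 tested members, 101 were called in no comparison. Members were also present or absent by list: 10 were listed only in G2-CK libraries, 12 only in G2-S3, 12 only in G2-S4 and 16 in both salt groups and no control. Over the whole series, 36.8% of all pairs of unigene and library were below the list minimum. How often such patterns occur among all unigenes was not counted, so these numbers are not set against a background. The count of 34 members that differed between the doses became 18 when replicate 1 of G2-S3 was omitted (8.88% of all unigenes). Omitting replicate 1, 2 or 3 of G2-S4 gave 19, 20 or 19 (9.07%, 8.35% or 9.82%), beside 14.1% of all unigenes with every library. Untested members were shorter, with a median length of 778 bases against 1302 bases for the tested.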

How the data were processed

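RNA-seq of 9 leaf libraries was analysed, 3 each of G2-CK, G2-S3 and G2-S4, from 1 deposited list per library. Per the study's methods and the submitters' processing notes, reads were called with CASAVA 1.8, assembled with Trinity, clustered with Corset, mapped with bowtie2 and counted with RSEM, and the authors deposited expected counts and FPKM for unigenes above 0.3 FPKM. No genome build applies, so no coordinates are given, and no sequence was used. The deposited lists also carry columns of annotation, and no other sample's columns.

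Expected counts were rounded and tested with edgeR 4.0.16 (R 4.3.3, limma 3.58.1): quasi-likelihood F-test, two-sided, all 9 libraries in 1 fit of group means, TMM factors, library sizes fitted from count, FPKM and length, a minimum count of 10 (filterByExpr), and Benjamini-Hochberg adjustment over all features tested. A value absent from a list entered the unigene fit at the most reads it could have had (median 2.11 reads) and protein sums at 0, which add unigenes of 1 Swiss-Prot description. DESeq2 1.42.0, other scalings, filters, missing values, a replicate block and each library left out were the alternatives. The scripts were tested on simulated data. The labels call the samples replicates of the genotype without tying them to separate pots, so p-values measure the spread between these samples.

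Named unigenes were, per comparison, the 8 largest increases and decreases among called members that averaged 1 or more in log2 CPM in groups without overlap (several are summarised in counts), all names of at least 5 CPM, the 5 most abundant members in G2-CK and in G2-S4, and for the pathway lists the 2 largest called changes in each direction. For ethylene synthesis only 1 of the names called lower is described. Other items are said to be chosen after their values were seen. The members and lists were chosen with earlier results of these data known.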

Additional observations from a re-analysis of the deposited data

How the results depend on the processing

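Members called in G2-S3 against the control (25) were 13 with absent values at 0, 7 with no filter on low counts, and 6 to 35 when 1 library was left out, with 6 and 8 when replicates 2 and 3 of G2-CK and 7 and 9 when replicates 1 and 2 of G2-S3 were omitted. In the fits giving 6, 8, 7 and 9, the share of all unigenes called was 1.66%, 2.24%, 2.03% and 1.97%, beside 5.73% with every library. Members called between the doses (34) were 15 with absent values at 0, 19 with no filter, and 18 to 32 with 1 library left out, the lowest without G2-S3 replicate 1. Members called in G2-S4 (70) stayed within 55 to 71 with 1 library left out. Protein sums called in G2-S3 (8) were 5 when only the groups compared were fitted, 5 at a log2 fold change of at least 1, and 5 to 11 with 1 library left out. Protein sums called in G2-S4 (22) ranged from 16 to 24, and those called between the doses (11) from 6 to 12. DESeq2 called 37, 67 and 35 members. Same-numbered replicates had correlations of -0.11 to 0.039 in their deviations, and differently numbered ones -0.064 to 0.094. With 3 libraries a group this cannot exclude a pairing. The paper reports pots in randomized blocks, but the labels do not tie replicate numbers to blocks, so the main fit used no pairing. With a replicate block, 17, 66 and 25 members and 6, 19 and 5 protein sums were called. No named result that was called in the main fit or in the alternative run reversed direction there. Changes of sign in results called in neither fit were not counted. The cause of these moves was not tested. An absent value says only that the unigene lay at or below 0.3 FPKM.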
